A study of Homo sapiens with 4 samples.

Results

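The UGT2B enzymes are UDP-glucuronosyltransferases, and the members described here are UGT2B4, UGT2B7, UGT2B10, UGT2B11, UGT2B15, UGT2B17 and UGT2B28. Every probe set whose platform annotation holds the symbol of a member was taken, and 6 probe sets of 4 of the 7 genes were found among the 19583 genes of the arrays. UGT2B7, UGT2B10 and UGT2B11 had no probe set under their own symbol and were not analysed here. These genes were chosen by their higher values in the LNCap ERG arrays of the same comparison, so their differences are given as a description, with standard errors and no test. No member probe set names several genes, but 3 of the 6 are of the x_at kind, in which probes can pick up similar transcripts as well, and the UGT2B genes are close in sequence.

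RNA was measured on 4 Affymetrix arrays of LNCap, an androgen-responsive human prostate cancer cell line that carries its own androgen receptor. In 2 of them, LNCap ERG, the cells had been transduced with a lentivirus for the ETS transcription factor ERG with red fluorescent protein, and in the other 2, LNCap Vector, with a lentivirus for the fluorescent protein alone. All cells were kept in a 10% culture medium that the labels call RMPI, without an added androgen or drug in the labels, and were plated the day before RNA was taken. The sources used here do not give the promoter that drives ERG, the share of transduced cells, or whether arrays of one group are separate cultures. The p-values therefore rest on the spread between 2 arrays a group, which may be technical.

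The 4 ERG probe sets had log2 intensities from 2.65 to 3.58 and differences between the groups from -0.24 to 0.12, and none was higher in both LNCap ERG arrays. It is not known here if the virus's ERG transcript is one these probes can read, so ERG does not check the labels, and the groups are named as the labels name them. Of 8 markers of luminal LNCap cells 6 were measured, among them KLK3 and KRT8, and all 6 were above background on every array, with log2 fold changes of -0.29 to 0.08. Background here is a log2 intensity of 4.70, the 95th percentile of 28 measured genes of other organs such as heart, pancreas and testis. Liver is the other main site of these enzymes, and of 10 hepatocyte markers 4 (APOA1, TTR, HP and CYP2E1) were above background on every array. The others, ALB, APOA2, FGA, FGB, SERPINA1 and TF, were not. The log2 fold changes of the 10 ran from -0.29 to 0.34, and HP (0.34) and TTR (0.30) were the highest of them. Their part in the UGT2B values was not tested. ALB, APOA2 and FGA are themselves among the genes that set this background.

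UGT2B enzymes sit in the membrane of the endoplasmic reticulum and join glucuronic acid from UDP-glucuronic acid to steroids, bile acids, fatty acids and drugs, which makes them water-soluble for export. In the prostate, UGT2B15 and UGT2B17 attach it to dihydrotestosterone and its metabolites androsterone and androstanediol, which ends their action on the androgen receptor. UGT2B28 can also act on androgens. In LNCap cells androgen lowers the transcripts of UGT2B15 and UGT2B17, and the forkhead factor FOXA1 is known to act at their promoters.

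The promoter of UGT2B15 is shown because UGT2B15 was one of the members that were higher, and because the factors known for these genes and for the study, FOXA1, the androgen receptor and ETS proteins, each have a known DNA motif. RefSeq promoters of 4 of the 7 members were at hand, those of UGT2B7, UGT2B10, UGT2B11 and UGT2B15, in the build GRCh38.p14. The 250 bases before the transcription start of UGT2B15, at chr4:68670653-68670902 on the minus strand, follow 5′ to 3′, with capitals for a forkhead match (GTAAACA), an androgen receptor element arm (AGAACA) and an ETS core (TTCC).
UGT2B15: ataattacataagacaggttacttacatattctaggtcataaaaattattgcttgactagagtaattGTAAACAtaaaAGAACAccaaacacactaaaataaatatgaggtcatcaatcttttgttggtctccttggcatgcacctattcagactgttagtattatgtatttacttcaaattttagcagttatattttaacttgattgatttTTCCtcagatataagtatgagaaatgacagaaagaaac

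Motifs were searched on both strands of 300-base windows, from 250 bases before to 50 after the start, in 35116 RefSeq promoters. The forkhead site TGTTTAC, or GTAAACA on the other strand, was in the UGT2B15 window alone among the 4 members and in 3.42% of all promoters. Its shorter form TGTTTA or TAAACA, which overlaps it, was in all 4 members and in 12.3% of all promoters. It lay between 182 and 170 bases before the start in each of the 4. The aligned stretches around it are shown to let the 4 promoters be compared, with the shorter form in capitals. They lie at chr4:69096283-69096325 on the plus strand for UGT2B7, chr4:68815801-68815843 on the plus strand for UGT2B10, chr4:69214903-69214945 on the minus strand for UGT2B11 and chr4:68670809-68670850 on the minus strand for UGT2B15.
UGT2B7: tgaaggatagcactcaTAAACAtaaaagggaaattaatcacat
UGT2B10: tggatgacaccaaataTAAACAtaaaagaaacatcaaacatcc
UGT2B11: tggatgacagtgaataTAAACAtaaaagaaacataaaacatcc
UGT2B15: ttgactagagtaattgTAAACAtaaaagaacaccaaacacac

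The androgen receptor element arm AGAACA or TGTTCT was in UGT2B15 alone of the 4, from 172 to 167 bases before the start, and in 14.8% of all promoters. The ETS core GGAA or TTCC was in all 4 windows, as it was in 95.5% of all promoters, and its longer form CCGGAA or TTCCGG was in 0 of the 4 and in 17.2% of all. The HNF1 arm GTTAAT or ATTAAC, for a liver factor known to act on UGT2B genes, was in 0 of the 4 and in 6.88% of all. These matches describe the letters and are no measured binding. Over the whole aligned windows the promoter of UGT2B15 was identical to that of UGT2B11 at 70.5% of positions, to UGT2B10 at 69.0% and to UGT2B7 at 63.0%, against 48.9% to 50.9% for UGT2A1, UGT2A2 and UGT2A3.

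Of the 6 member probe sets, 4 were higher in both LNCap ERG arrays than in both LNCap Vector arrays and none was lower. Over all 51963 probe sets, 18.8% were higher without overlap in the same way, and of those above background in both groups, 21.1%. In a culture, RNA from more cells and more RNA per cell cannot be told apart, and this holds for every value given here. The 4 were the probe sets of UGT2B17 and UGT2B28 and 2 of the 3 of UGT2B15. They were also the 4 that lay above background in both groups.

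UGT2B17, which conjugates testosterone, dihydrotestosterone and androsterone, was read by 1 probe set, 207245_PM_at, of the plain kind. Its log2 intensity was 8.49 and 8.43 in the LNCap ERG arrays and 7.29 and 7.04 in the LNCap Vector arrays. On the scale of the deposited intensities these are 359 and 344 against 157 and 131. Both LNCap ERG arrays lay above both LNCap Vector arrays, and the nearest of them were 1.13 apart on the log2 scale. The group means were 8.46 ± 0.04 (SD, n = 2) and 7.17 ± 0.18 (SD, n = 2), a 2.45-fold difference (log2 fold change 1.29, standard error 0.12). In the order of log2 fold changes from the highest down, it was number 8 of all probe sets.

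UGT2B15, which conjugates dihydrotestosterone and androstanediol, was read by 3 probe sets that did not give the same picture. At 216687_PM_x_at its log2 intensity was 7.74 and 7.79 in the LNCap ERG arrays and 6.72 and 6.57 in the LNCap Vector arrays. The groups were 1.02 apart at their nearest arrays, which is more than either pair of replicates differed. Means of 7.76 ± 0.03 and 6.65 ± 0.11 (SD, n = 2 in each group) gave a 2.17-fold difference (log2 fold change 1.12, standard error 0.10). At 207392_PM_x_at the log2 intensity was 9.22 and 9.47 in the LNCap ERG arrays and 8.45 in each LNCap Vector array. Here the LNCap Vector arrays were level and the LNCap ERG arrays were 0.25 apart, again with no overlap. Means of 9.34 ± 0.18 and 8.45 ± 0.01 (SD, n = 2 in each group) gave a 1.85-fold difference (log2 fold change 0.89, standard error 0.11).

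The third UGT2B15 probe set, 217175_PM_at, is the one of the plain kind. Its log2 intensity was 2.81 and 2.73 in the LNCap ERG arrays and 2.78 and 2.75 in the LNCap Vector arrays. All 4 values lay below background, the groups overlapped, and the log2 fold change was -8.78e-04 (standard error 0.09), with a sign that turned with the centring or with 1 array left out. The UGT2B15 difference was therefore read by probe sets of the x_at kind alone, whose share of signal from UGT2B17, UGT2B28 or other related transcripts was not tested.

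UGT2B28 was read by 211682_PM_x_at alone, of the x_at kind. Its share of signal from UGT2B15, UGT2B17 or other related transcripts was not tested. Its log2 intensity was 8.80 and 8.98 in the LNCap ERG arrays and 8.28 and 8.31 in the LNCap Vector arrays. The groups did not overlap, and their nearest arrays were 0.49 apart. Means of 8.89 ± 0.12 and 8.29 ± 0.02 (SD, n = 2 in each group) gave a 1.51-fold difference (log2 fold change 0.60, standard error 0.10). It was number 112 from the top among all probe sets, against 12 and 25 for the UGT2B15 probe sets above background.

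UGT2B4, a liver enzyme of bile acids, was read by 206505_PM_at and was dim. Its log2 intensity was 2.79 and 3.08 in the LNCap ERG arrays and 2.76 and 2.83 in the LNCap Vector arrays. All 4 values lay below background and the groups overlapped (means of 2.94 ± 0.20 and 2.79 ± 0.05, SD, n = 2). Its log2 fold change was 0.15 with a standard error of 0.12, and from 0.0014 without LNCap ERG 2 to 0.29 without LNCap ERG 1. UGT2B4 and the plain UGT2B15 probe set give no difference that could be read at this signal.

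**Figure D1:**
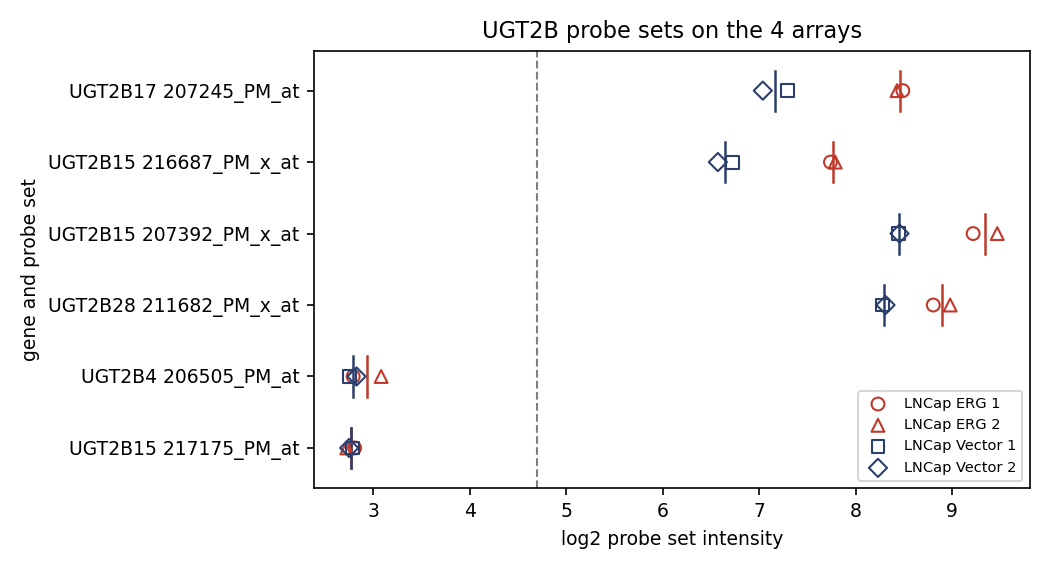
The 6 UGT2B probe sets by their log2 intensity (x axis), 1 per line (y axis), on the 2 LNCap ERG arrays (red circle and triangle) and the 2 LNCap Vector arrays (blue square and diamond), with group means as short lines and the background of 4.70 as a dashed line. The upper 4 probe sets lie right of the dashed line with both LNCap ERG arrays above both LNCap Vector arrays, and the dim probe sets of UGT2B4 (2.76 to 3.08) and UGT2B15 (2.73 to 2.81) overlap.

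The median log2 fold change of the 6 member probe sets was 0.74, and that of all probe sets was -3.33e-08. UGT2B17 and 216687_PM_x_at of UGT2B15 were the 2 members with a log2 fold change of at least 1, a size reached by 0.0289% of all probe sets (15 of 51963). Both numbers follow from the choice of these genes on this comparison, so nothing is read from them.

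The replicates of the 4 bright probe sets differed in unlike ways, which rests on 1 difference between 2 arrays in each group. In UGT2B17 and 216687_PM_x_at the LNCap Vector arrays differed more than the LNCap ERG arrays, with LNCap Vector 1 above LNCap Vector 2 by 0.26 and 0.15. In 207392_PM_x_at and UGT2B28 the LNCap ERG arrays differed more, with LNCap ERG 2 above LNCap ERG 1 by 0.25 and 0.17. Each probe set was also set against the others by the root mean square distance of its log2 values, centred on their own mean over the 4 arrays. That distance was 0.10 between UGT2B17 and 216687_PM_x_at and 0.15 between 207392_PM_x_at and UGT2B28. The 2 UGT2B15 probe sets were 0.14 apart, so 207392_PM_x_at was no nearer to UGT2B28 than to 216687_PM_x_at. The distances therefore do not part the 4 into separate kinds. UGT2B17 was 0.25 from 207392_PM_x_at and 0.37 from UGT2B28. By this measure 1 UGT2B15 probe set lay nearest to the UGT2B17 probe set rather than to the other UGT2B15 probe set, with 4 points each.

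By the same distance, the 5 genes nearest to UGT2B17 outside its family were SCNN1G, TARP, ST8SIA4, RDH10 and DDC. SCNN1G, a subunit of the epithelial sodium channel, was at a distance of 0.11, with log2 intensities of 7.35 and 7.38 in the LNCap ERG arrays and 6.22 and 6.20 in the LNCap Vector arrays. TARP, transcribed in prostate cells from the T cell receptor gamma locus, was also at 0.11, with 8.27 and 8.18 against 6.83 and 6.87. The others lay at 0.19 (ST8SIA4, a polysialyltransferase, with group means of 4.81 and 3.61, the second below background), 0.21 (RDH10, a retinol dehydrogenase) and 0.23 (DDC, the aromatic amino acid decarboxylase). The distance weighs the size of the difference most, since the shapes rest on 2 arrays a group, and 8 genes lay nearer to UGT2B17 than 207392_PM_x_at of UGT2B15 did.

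**Figure D2:**
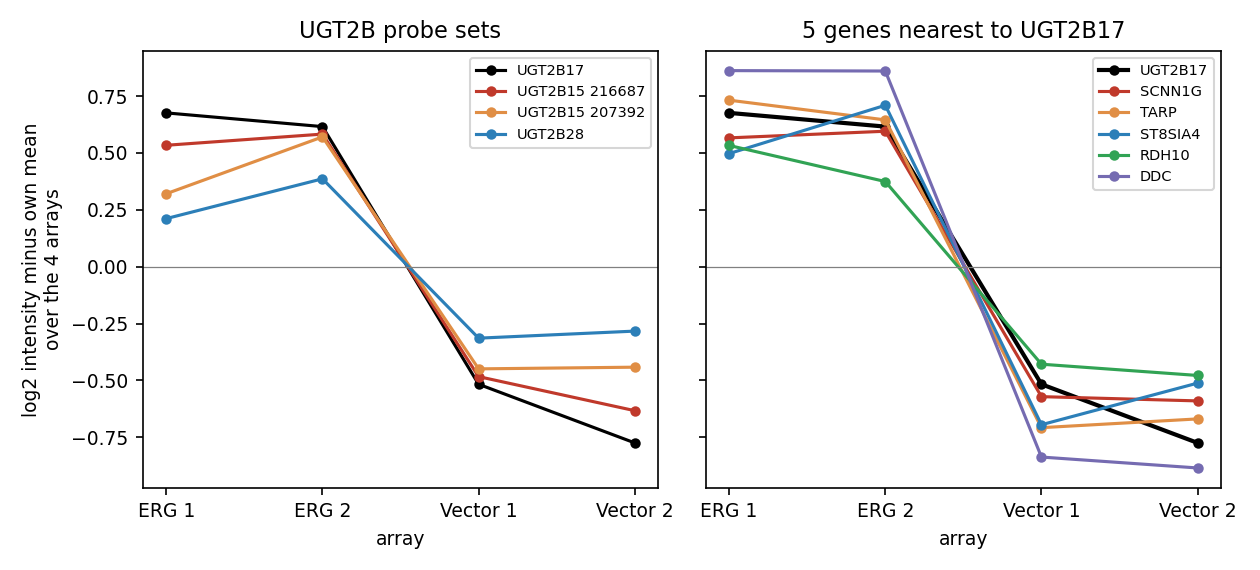
Log2 intensity minus the probe set's own mean over the 4 arrays (y axis) on each array (x axis), for the 4 UGT2B probe sets above background (left) and for UGT2B17 with the 5 genes nearest to it (right). On the left UGT2B17 and UGT2B15 216687 differ most between the LNCap Vector arrays, and UGT2B15 207392 and UGT2B28 between the LNCap ERG arrays, where they differ by 0.25 and 0.17.

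The UGT2B genes lie side by side on chromosome 4, so the genes around them were described too. In the RefSeq order of GRCh38.p14 they run UGT2B17, UGT2B15, UGT2B10, UGT2B7, UGT2B11, UGT2B28 and UGT2B4, with UGT2A3 between UGT2B10 and UGT2B7 as the 1 other measured gene inside. UGT2A3, a relative with a part in bile acid conjugation, lay below background and had a log2 fold change of 0.10 (adjusted p = 0.83 by limma). Of the 10 measured genes nearest on each side, 11 of 20 had a log2 fold change above 0 and 9 below, with a median of 0.02. By limma none of the 20 passed an adjusted p of 0.05, and at an unadjusted p under 0.05 none was higher and 1 was lower, as it was by the methods' t-test. ODAM, the lower one, did pass under some alternatives. That unadjusted p was met upward by 5.61% of all genes and downward by 4.11%.

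The gene that was lower was ODAM, an enamel and epithelial secreted protein. Its log2 intensity was 3.36 and 3.69 in the LNCap ERG arrays and 5.63 and 5.55 in the LNCap Vector arrays, so that the first group lay below background and the second above it. This is a log2 fold change of -2.06 (adjusted p = 0.056 by limma, and from 0.0018 to 0.55 over the settings with 4 arrays, standard error 0.13), opposite in sign to those of UGT2B17, UGT2B15 and UGT2B28. The nearest genes outside the cluster with a probe set of their own, TMPRSS11E before UGT2B17 and the sulfotransferase SULT1B1 after UGT2B4, did not pass. The probe set that names both UGT2A1 and UGT2A2 was not counted among the neighbours. It lay below background, at 3.44 in LNCap ERG and 3.43 in LNCap Vector, with a log2 fold change of 0.0079. Of the 20 neighbours, CENPC, UBA6 and YTHDC1 alone were above background in both groups.

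**Figure D3:**
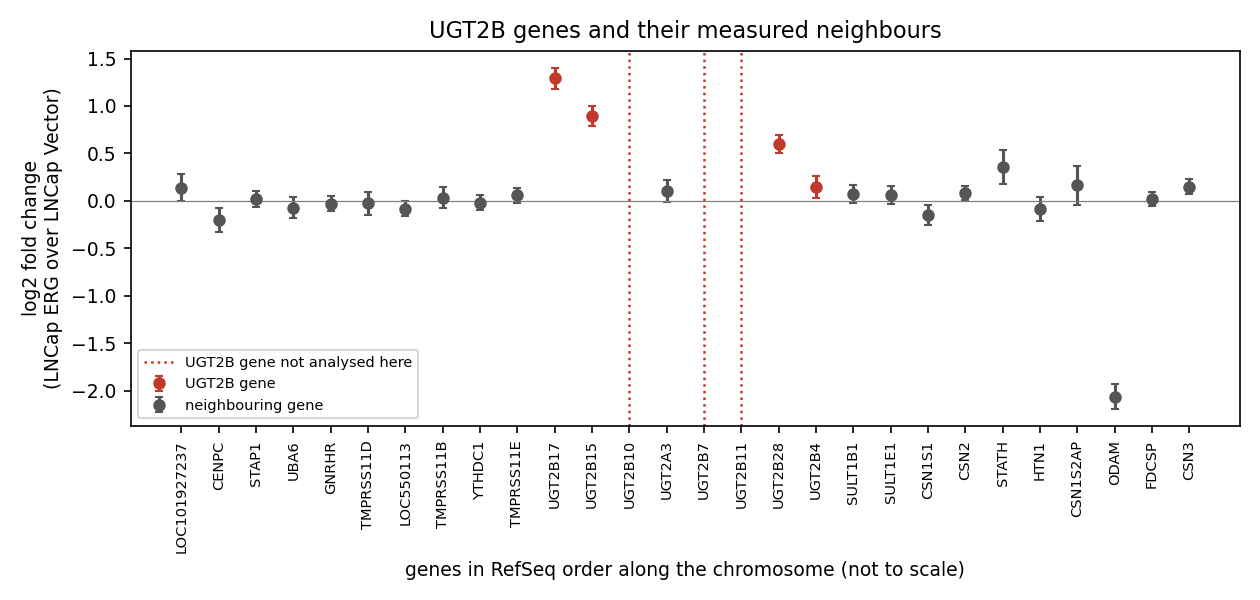
Log2 fold change of LNCap ERG over LNCap Vector (y axis, bars are standard errors from limma) for the UGT2B genes (red) and their measured neighbours (grey) in RefSeq order along chromosome 4 (x axis, not to scale), with 1 probe set per gene, the brightest, and dotted lines for UGT2B genes not analysed here. UGT2B17 (1.29), UGT2B15 (0.89) and UGT2B28 (0.60) stand above the rest, UGT2A3 between them is at 0.10, and ODAM is at -2.06. UGT2B15 and UGT2B28 are each read here by a probe set of the x_at kind.

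Genes around the UGT2B proteins were counted in 7 lists, with 1 probe set per gene, the brightest. The lists are for other UGT enzymes, UDP-glucuronic acid supply and use, steroid conversion and sulfation, transport, regulators, and genes that androgen raises or lowers. They hold 130 genes, of which 107 had a probe set and the rest were not analysed here. By limma with Benjamini-Hochberg adjustment over all 19583 genes, 1 of the 107 passed upward and none downward, where 0.0102% of all genes (2 of 19583) passed in either direction. The 1 was DDC, which is also 1 of those 2. The lists were chosen with earlier results of these data known, so no excess is read from this. At an unadjusted p under 0.05, 13 were higher and 11 lower by limma, and 10 and 5 by the methods' t-test. Of all genes, limma put 5.61% higher and 4.11% lower at that p, and the methods' t-test put 4.38% and 3.76%. These are the shares against which the counts of each list stand. The median log2 fold change was 0.01 over the lists and 0.01 over all genes.

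Among other UDP-glucuronosyltransferases, 4 of 15 genes were measured by a probe set of their own and none passed, and at an unadjusted p under 0.05 limma and the methods' t-test each put 1 higher and none lower. Their median log2 fold change was 0.05, and 0.06 to 0.11 with single arrays left out. UGT8, which makes galactosylceramide of myelin, was at 6.58 in LNCap ERG and 6.08 in LNCap Vector (log2 fold change 0.49, standard error 0.09, adjusted p = 0.32). Its other probe set, below background, had 0.35. UGT3A1 was below background and had a log2 fold change of -0.11 (adjusted p = 0.89), with a sign that turned with the centring or with 1 array left out. Its other probe sets, also below background, had -0.02 and, without overlap, 0.12. The UGT1A enzymes, which conjugate bilirubin and phenols, share exons, and 6 of their 9 probe sets name several genes. All 9 had group means of 3.61 or less, below background, with log2 fold changes of -0.25 to 0.22, and 1 probe set was higher and 1 lower without overlap.

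For the supply and use of UDP-glucuronic acid, all 8 genes were measured and none passed, and at an unadjusted p under 0.05 neither limma nor the methods' t-test put any higher or lower. UGP2, which makes UDP-glucose, was at 9.50 in LNCap ERG and 9.26 in LNCap Vector (log2 fold change 0.23, standard error 0.09, adjusted p = 0.52). UGDH, which oxidises UDP-glucose to the donor that UGT2B enzymes use, was chosen for this role after its values were seen and had 8.75 against 8.82 (log2 fold change -0.07, adjusted p = 0.84), with a sign that turned with centring on housekeeping genes. PGM1 and PGM2, phosphoglucomutases, had 0.11 (adjusted p = 0.69) and -0.09 (adjusted p = 0.73), and the sign of PGM2 turned with centring on housekeeping genes. The list's median was 0.0076, and it was -0.03 without LNCap ERG 1.

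Of 42 genes of steroid conversion and sulfation 40 were measured and none passed, and at an unadjusted p under 0.05 limma put 6 higher and none lower, while the methods' t-test put 3 and none. Their median log2 fold change was 0.05, and 0.03 to 0.07 with single arrays left out. It was 0.0097 where probe sets of the plain kind alone were used. CYP3A5, which hydroxylates testosterone, had the smallest p, at 7.06 in LNCap ERG and 6.30 in LNCap Vector (log2 fold change 0.77, standard error 0.11, adjusted p = 0.22, and from 0.030 to 0.59 over the settings with 4 arrays). Its other probe sets had log2 fold changes of 0.92, 0.82 and, where dim, 0.11. HSD17B14, a hydroxysteroid dehydrogenase, had 0.62 (standard error 0.10, adjusted p = 0.26) at a vector mean of 4.78, near background. Its other probe sets, of the x_at kind with vector means of 4.42 to 4.66, below background, had 0.32 to 0.52. CYP3A7, a fetal relative of CYP3A5, had 0.70 (standard error 0.16, adjusted p = 0.36) at a vector mean of 4.50, below background. That CYP3A7 probe set is of the x_at kind, and the gene's plain probe set, dim in both groups, had 0.30.

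Glucuronides leave cells through ABC transporters, and steroids enter through organic anion transporters. Of 14 such genes 13 were measured and none passed, and at an unadjusted p under 0.05 limma put 2 higher and 2 lower, while the methods' t-test put 2 and 1. Their median log2 fold change was 0.04, and it was -0.04 without LNCap Vector 1. The 3 with the smallest p, SLCO3A1 (-0.32), ABCC2 (0.24) and ABCB1 (-0.23), had adjusted p-values of 0.39 to 0.47 and lay below background.

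Of 20 regulators known to act on UGT2B genes 13 were measured and none passed, and at an unadjusted p under 0.05 limma put none higher and 2 lower, while the methods' t-test put none either way. FOXA1, chosen for its place at these promoters after its values were seen, was at 10.64 ± 0.10 in LNCap ERG and 10.57 ± 0.01 in LNCap Vector (SD, n = 2 in each group). Its log2 fold change was 0.07 with a standard error of 0.09 (adjusted p = 0.85 by limma), and it was -0.0075 without LNCap ERG 2. PPARA, a fatty acid receptor, had -0.30 (adjusted p = 0.50), NFE2L2, the NRF2 stress regulator, -0.25 (adjusted p = 0.51) and NR1H3, a sterol receptor, -0.17 (adjusted p = 0.58), with a sign that turned with centring on housekeeping genes. PPARA was at -0.18 without LNCap Vector 2 and at -0.02 by the mean of its probe sets, and NFE2L2 was at -0.15 without LNCap ERG 1. The list's median was -0.0023, and -0.04 without LNCap ERG 1. The androgen receptor transcript was not analysed here.

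Since androgen lowers UGT2B15 and UGT2B17 in LNCap cells, genes that androgen raises or lowers were counted beside them. Of 25 androgen-induced genes 23 were measured and none passed, and at an unadjusted p under 0.05 limma put 2 higher and 6 lower, while the methods' t-test put 2 and 4. Their log2 fold changes were above 0 for 6 and below 0 for 17, where 10344 of all 19583 genes were above 0 and 9239 below. The list's median was -0.13, where all genes had 0.01. The median was -0.07 without LNCap Vector 1 and with plain probe sets alone, and with centring on housekeeping genes it turned to 0.05. The 3 with the smallest p did not point one way. The prostatic acid phosphatase ACP3 had 0.56 (standard error 0.09, adjusted p = 0.26), at 6.61 in LNCap ERG and 6.05 in LNCap Vector. It had -0.22 where probe sets of the plain kind alone were used. That plain probe set was below background (3.76 and 3.98) and its groups overlapped, and the other plain one, also dim, had 0.07. NDRG1, a stress and differentiation gene, had 0.45 (standard error 0.07, adjusted p = 0.26, and from 0.0073 to 0.50 over the settings with 4 arrays). CENPN, a centromere protein, had -0.45 (standard error 0.08, adjusted p = 0.27, and from 0.0073 to 0.54). Its other probe sets had -0.59, -0.45 and, where dim, 0.06. With trended and robust moderation in limma NDRG1 and CENPN passed. By that fit FKBP5, a steroid receptor chaperone (-0.49, adjusted p = 0.013), and PMEPA1, a membrane adaptor (-0.38, adjusted p = 0.045), passed too. Both were chosen after their values were seen.

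Of 8 genes that androgen lowers, UGT2B genes left out, 7 were measured, and at an unadjusted p under 0.05 limma put 2 higher and 1 lower, while the methods' t-test put 2 and none. DDC, which makes dopamine and serotonin, passed, at 9.65 and 9.64 in the LNCap ERG arrays and 7.95 and 7.90 in the LNCap Vector arrays (a difference of 1.72 with a standard error of 0.08, adjusted p = 0.038 by limma, and from 3e-05 to 0.50 over the settings with 4 arrays). It did not pass with any 1 array left out, and its second probe set, which was dim, had 0.06. CAMK2N1, an inhibitor of a calcium-dependent kinase, had 0.68 (standard error 0.08, adjusted p = 0.20, and from 0.0065 to 0.56). Its other probe sets had 0.43 and, with overlapping groups, 0.25. CCN3, a matricellular protein, had -0.31 (adjusted p = 0.41) and was dim. The median of the 7 was 0.08, with 5 above 0. It was 0.22 without LNCap ERG 2, -0.0070 without LNCap Vector 2 and -0.03 by the mean of probe sets.

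**Figure D4:**
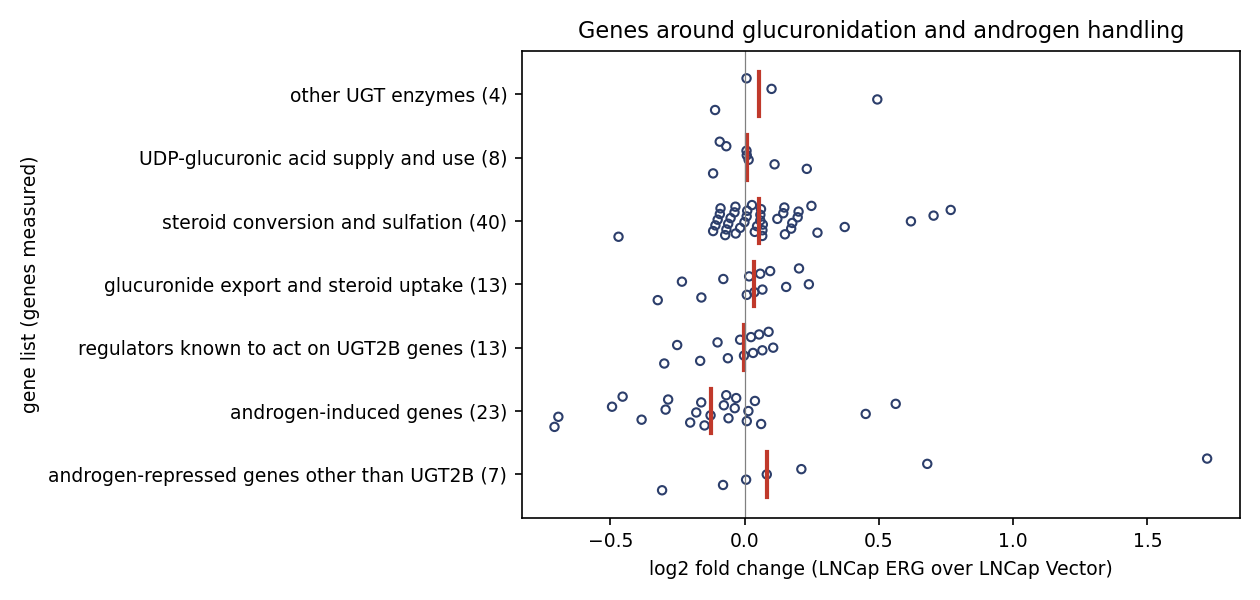
Log2 fold change of LNCap ERG over LNCap Vector (x axis) of each measured gene (circles) in 7 lists around glucuronidation and androgen handling (y axis, with the number of genes measured), red lines marking each list's median. Medians run from -0.13 for androgen-induced genes to 0.08 for androgen-repressed genes, and DDC at 1.72 lies furthest to the right. The first changed sign only with centring on the median level of housekeeping genes. The second changed sign without LNCap Vector 2 and by the mean of probe sets.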

How the data were processed

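The UGT2B genes, gene lists and tests were chosen with earlier results of these data known. Per the study's methods the values come from RMAexpress normalization of array scans processed in dChip, and Multiexperiment Viewer supplied the authors' annotation (versions not given in the sources used here). The deposited intensity values state no scale. Array medians were 14.0 to 14.4 and array maxima 14962 to 15344, so they were read as linear and taken to log2. Of 51965 probe sets 2 lacked a value and were left out.

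By the platform annotation 39464 probe sets hold 1 gene symbol, 838 several and 11661 no symbol, and 39413 matched RefSeq by Entrez identifier with 0 new symbols. The limma fit (version 3.58.1, R 4.3.3, lmFit and eBayes, Benjamini-Hochberg, threshold 0.05) ran on all probe sets for the members and otherwise on the brightest probe set of each of 19583 genes, with 2 residual and 3.23 prior degrees of freedom. It was tested on simulated data. The Student test that the paper names for its data is called the methods' t-test.

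Named by rule were all members, of each list the genes past the threshold and the 3 with the smallest p, the 5 genes nearest to UGT2B17, and 10 neighbours on each side (given by count, with 6 named). Others are said to be chosen after their values were seen. Where a list gene has further probe sets, these are given for some of the named genes only. RefSeq promoters were aligned with Biopython 1.88. The alternatives tried were a second quantile normalization, housekeeping centring, the replicate block, a pseudocount of 16, trended and robust moderation, dropping dim genes, the mean of probe sets, plain probe sets, the methods' t-test and each array left out. Array number and signal over background limit the precision.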

Additional observations from a re-analysis of the deposited data

How the results depend on the processing

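The 4 UGT2B probe sets above background stayed higher in LNCap ERG under every alternative run for them. Their groups did not overlap, so leaving out an array, the replicate block or a pseudocount could not turn their signs. They were also chosen on this comparison, so no support is read from this. With single arrays left out, their log2 fold changes were 1.16 to 1.42 for UGT2B17, 1.04 to 1.19 and 0.77 to 1.02 for UGT2B15 at 216687_PM_x_at and 207392_PM_x_at, and 0.51 to 0.69 for UGT2B28, and the number of member probe sets without overlap was 4 to 5, where 31.3% to 36.1% of all probe sets were then higher without overlap. Centring on the median level of housekeeping genes raised all log2 fold changes by 0.17, to 1.47 (UGT2B17), 1.29 and 1.07 (UGT2B15) and 0.77 (UGT2B28), with all 6 member probe sets, the dim ones included, and 57.3% of all probe sets higher without overlap. That median follows the middle gene of each array, which was TFRC every time, so this centring rests on the level of TFRC alone. TFRC had a log2 fold change of -0.17 (adjusted p = 0.56 by limma), where the median over the 19 housekeeping genes was -0.01. Centring on their deviations instead, an alternative chosen after seeing the data, moved values by 0.0075. With a pseudocount of 16, 216687_PM_x_at was at 1.01. Of all genes, where 2 passed (1 higher, 1 lower), 31 (24 and 7) passed with housekeeping centring, 6 with centring on deviations, 89 with trended and robust moderation, 54 without dim genes, 14 with the mean of probe sets, and 0 with the methods' t-test, the replicate block or any array left out (0 to 0). Of the list genes, where 1 passed, the counts were 2 with housekeeping centring, 7 with trended and robust moderation, 3 without dim genes and 0 with the methods' t-test, the replicate block or an array left out (0 to 0). The arrays share only a number (correlation of same-numbered deviations 0.08), and the replicate block left log2 fold changes as they were. The sign turned for ACP3 with plain probe sets (-0.22), where the probe set taken was below background. Signs turned for NR1H3 (0.0095), PGM2 (0.082), UGDH (0.11), UGT3A1 (0.065), the dim UGT2B15 probe set (0.17) and the medians of the androgen-induced genes (0.05) and the regulators (0.17) with housekeeping centring. With an array left out they turned for UGT2A3 (-0.045 to 0.25), UGT3A1 (-0.33 to 0.11), FOXA1 (-0.0075 to 0.14), the dim UGT2B15 probe set (-0.04 to 0.04) and the medians for UDP-glucuronic acid supply (-0.03 to 0.04), glucuronide export (-0.04 to 0.06) and androgen-repressed genes (-0.0070 to 0.22). With the mean of probe sets they turned for the medians of UDP-glucuronic acid supply (-0.03), glucuronide export (-0.0011), regulators (0.01) and androgen-repressed genes (-0.03). The regulators' median, close to 0, also turned with a second quantile normalization (0.01) and with centring on deviations (0.0053), which turned the dim UGT2B15 probe set too (0.0066). The causes were not tested.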
